A study of Mus musculus with 6 samples.

Results

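The genes described here are 30 genes of the oligodendrocyte lineage, the cells that make central nervous system myelin, taken from a list of names and read in the cortex of newborn mice. All 30 were found among the 53379 genes counted. They were divided by the stage for which they are known into 10 precursor genes, 7 genes of committed and newly formed oligodendrocytes and 13 myelin genes. Gene expression was measured by bulk RNA sequencing of total RNA from cortex of C57BL/6 mice at postnatal day 0, in 3 libraries of Npas3+/- mice, which carry 1 disrupted copy of the bHLH-PAS transcription factor gene Npas3, and in 3 libraries of wild-type (WT) mice. How the Npas3 allele was made is not given in the sources used here, and the labels do not say whether each library came from 1 animal, so the spread behind each p-value may be technical and is that of these 6 libraries alone.

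Oligodendrocytes arise from proliferating precursor cells, which in the forebrain are first produced ventrally and later also in the cortex. Precursors are defined by the transcription factors Olig1, Olig2 and Sox10 and by the platelet-derived growth factor receptor Pdgfra, and they divide and migrate before some of them leave the cell cycle. Committed cells then switch on Gpr17, Bcas1, Enpp6 and the myelin regulatory factor Myrf, and mature cells express the structural proteins of the myelin sheath. In mice most myelination of the cortex takes place in the weeks after birth, so newborn cortex is a tissue of precursors.

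Total counts ran from 75540885 to 87811574 in the Npas3+/- libraries and from 67378231 to 83256308 in the WT libraries. Npas3 itself stood at 15.0, 14.1 and 8.61 CPM (read counts scaled to the library total) in Npas3+/- replicates 1 to 3, against 23.4, 28.4 and 25.7 CPM in the WT replicates, which is 48.6% of the WT mean. All Npas3+/- libraries were below WT (log2 fold change -1.04, SE 0.20, edgeR adjusted p = 0.27, DESeq2 adjusted p = 7.8e-05). Cortical genes were present in every library, and the 10 cortical markers read, among them Emx1 and Neurod6, summed to 2777.9 to 3628.4 CPM in Npas3+/- and 2671.0 to 2935.6 CPM in WT. The libraries differed in a list of 21 genes of the striatum and ganglionic eminence, the ventral regions next to the cortex, whose score (mean deviation of log2 CPM from each gene's mean) was -1.03, -1.09 and 0.41 in Npas3+/- and 0.90, 1.30 and -0.49 in WT replicates 1 to 3. The genotypes overlapped in that score, yet log2 fold changes of Npas3+/- over WT were negative for 19 of the 21 genes and positive for 2 (median -1.106). Neither edgeR nor DESeq2 called any of the 21 at an adjusted p of 0.05, and 4 had an unadjusted edgeR p under 0.05, beside 12.1% of all genes. Of the 10 cortical markers, 8 were positive and 2 negative (median 0.129). The part of the striatal score in the results below was not tested beyond the values given with it as a covariate.

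Of the 30 genes, 26 had enough counts to be tested. None of the 26 passed an adjusted p of 0.05 in edgeR's quasi-likelihood test, which called 0.0377% of all 21244 genes tested (8 genes). At an unadjusted p under 0.05 there were 3 of 26 members, Olig2, Olig1 and C1ql1, beside 12.1% of all genes. DESeq2 called 1 of the 22 members to which it gave an adjusted p, Olig2, beside 2.81% of all genes with an adjusted p. All 3 Npas3+/- libraries lay above all 3 WT libraries for 4 of the 26, Olig1, Olig2, C1ql1 and Sirt2, beside 9.7% of all genes in that direction, and for 0 members did they lie below. Counting both directions, 18.9% of all genes had groups that did not overlap, so the 4 of 26 members are near the background. Log2 fold changes of Npas3+/- over WT were positive for 15 members and negative for 11, with a median of 0.048, beside a median of -0.009 and 48.2% positive over all genes.

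**Figure D1:**
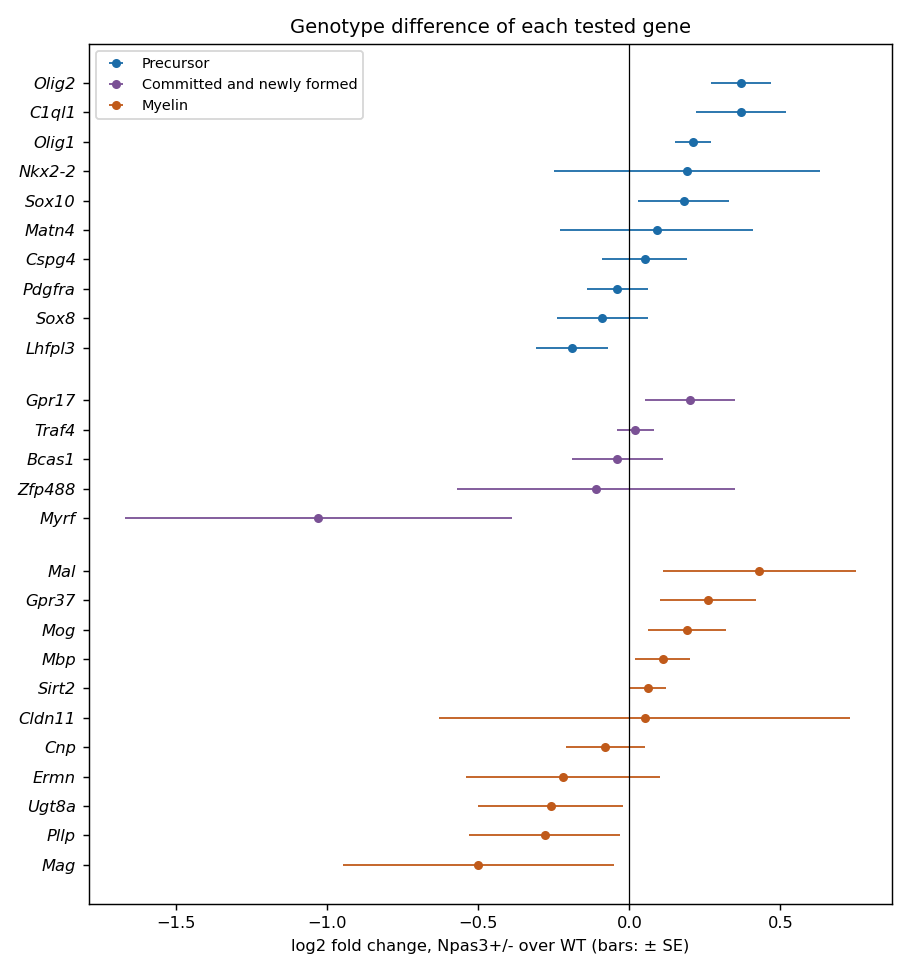
Log2 fold change of Npas3+/- over WT (horizontal axis) with its standard error for the 26 genes tested, grouped by stage and sorted within it. Olig2 at 0.37, C1ql1 at 0.37 and Olig1 at 0.21 lead the precursor genes, Myrf at -1.03 has the widest departure with an SE of 0.64, and no gene passed the test over all genes.

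Olig2 and Olig1, the paired bHLH transcription factors that specify the lineage, had the 2 smallest p-values of the 26. Olig2 (ENSMUSG00000039830, mm10 chromosome 16, 91225457 to 91228677, plus strand) was counted 4288, 3220 and 3452 times in Npas3+/- replicates 1 to 3 and 2640, 2740 and 2423 times in the WT replicates. This is 48.8, 41.9 and 45.7 CPM in Npas3+/-, against 39.0, 32.6 and 33.8 CPM in WT. The lowest Npas3+/- library was above the highest WT library by less than the SD within either genotype. The means were 45.5 ± 3.47 CPM in Npas3+/- and 35.1 ± 3.41 CPM in WT (SD, n = 3), a log2 fold change of 0.37 (SE 0.10). It did not pass in edgeR (adjusted p = 0.276) and passed in DESeq2 (adjusted p = 0.0376), and over all alternatives its adjusted p ran from 0.0376 to 0.796. In bulk tissue more cells of a type and more RNA per cell cannot be told apart.

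Olig1 (ENSMUSG00000046160, chromosome 16, 91269772 to 91271933, plus strand) lies 41.1 kb beyond the end of Olig2. It stood at 90.0, 90.3 and 92.3 CPM in Npas3+/- and at 82.4, 75.5 and 77.8 CPM in WT. The Npas3+/- libraries were close together and all above WT, with means of 90.9 ± 1.23 CPM in Npas3+/- and 78.6 ± 3.51 CPM in WT (SD, n = 3). The log2 fold change was 0.21 (SE 0.06, edgeR adjusted p = 0.276) and neither tool called it (DESeq2 adjusted p = 0.116, and 0.116 to 0.796 over all alternatives). With a correction for the GC content of transcripts the values were 0.11 for Olig1 and 0.29 for Olig2 (edgeR adjusted p = 0.579 and 0.415). With the striatal score as a covariate they were 0.22 and 0.39 (edgeR adjusted p = 0.796 for both). Leaving out any 1 library gave 0.18 to 0.25 for Olig1 and 0.32 to 0.46 for Olig2. Exons of Olig1 overlap those of Gm15966 on the opposite strand, and whether the counting used strand is not given in the sources used here.

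Both genes sit in a stretch of chromosome 16 whose other genes were read for comparison, a choice made after their values were seen. Within 500 kb to either side 26 genes were tested, Olig2 and Olig1 included, and their lowest edgeR adjusted p was 0.276. All Npas3+/- libraries lay above all WT libraries for Urb1 (log2 fold change 0.21, SE 0.10), a ribosome biogenesis factor, Ifnar1 (0.15, SE 0.07), an interferon receptor chain, and Itsn1 (0.22, SE 0.06), an endocytic scaffold, besides the Olig genes, and below WT for the transcript 4930404I05Rik (-0.40, SE 0.21). These are 5 of 26 genes higher, beside 9.7% of all genes, and 6 of 26 in either direction, beside 18.9%, for a stretch picked with its values in view. Both counts include Olig2 and Olig1, around which the stretch was picked, so they are raised by that choice and show no excess in the stretch. Olig2 had the highest log2 fold change of the 26. The direct neighbours were at 0.34 (SE 0.38) for the pseudogene H3f3a-ps2 before Olig2 and at 0.14 (SE 0.12) for Ifnar2 after Olig1, and both overlapped between genotypes.

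**Figure D2:**
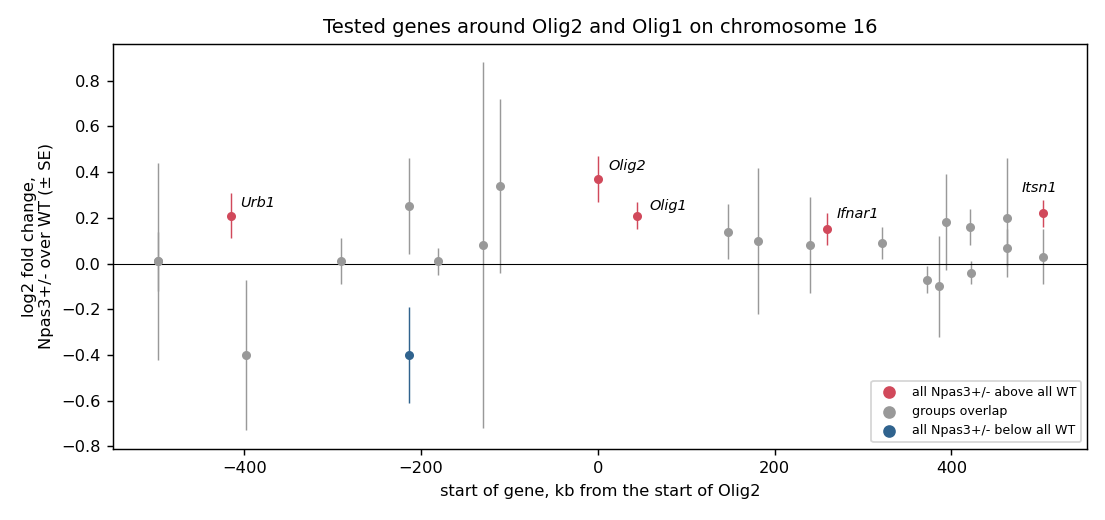
Log2 fold change of Npas3+/- over WT with its SE (vertical axis) for the 26 tested genes within 500 kb of Olig2 and Olig1, by the distance of each gene's start from that of Olig2 (horizontal axis, kb). Red points are the 5 genes whose 3 Npas3+/- libraries all lie above the 3 WT libraries, from Ifnar1 at 0.15 to Olig2 at 0.37.

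The sequence before the start of Olig2 is shown beside those of a pair of myelin genes that differ in whether they were counted at all, Mog and Opalin, with each CG dinucleotide in capitals. These are bases of RefSeq promoter windows (GRCm38.p6), on the strand of the gene and ending before the annotated gene: chr16:91225300-91225456 for Olig2, chr17:37023399-37023648 for Mog and chr19:41077114-41077363 for Opalin, with Mog and Opalin on the minus strand.
Olig2: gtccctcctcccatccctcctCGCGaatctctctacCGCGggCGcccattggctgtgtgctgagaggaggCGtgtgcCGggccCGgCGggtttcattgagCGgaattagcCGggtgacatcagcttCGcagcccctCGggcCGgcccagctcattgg
Mog: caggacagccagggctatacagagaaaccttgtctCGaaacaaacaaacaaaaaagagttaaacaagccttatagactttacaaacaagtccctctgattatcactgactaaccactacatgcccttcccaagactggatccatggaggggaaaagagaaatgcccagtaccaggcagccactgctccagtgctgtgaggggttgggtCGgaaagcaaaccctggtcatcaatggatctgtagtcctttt
Opalin: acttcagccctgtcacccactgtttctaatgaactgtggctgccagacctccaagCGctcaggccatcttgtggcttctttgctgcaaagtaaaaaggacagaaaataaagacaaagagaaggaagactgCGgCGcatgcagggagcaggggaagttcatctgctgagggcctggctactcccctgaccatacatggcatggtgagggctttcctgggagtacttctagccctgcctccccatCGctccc

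The stretch printed for Olig2 holds 14 CG in 157 bases, that for Mog 2 in 250 and that for Opalin 4 in 250. The first 250 bases of the RefSeq window of Olig2, which run into the annotated gene, hold 22. RefSeq windows were found for 23 of the 30 members, and in the 250 bases before the start the median number of CG was 11 in 7 precursor genes, 18 in 4 committed genes and 9.5 in 12 myelin genes, against 6 over the windows of 27025 genes. The letters ACGTG, the core of the sites bound by bHLH-PAS proteins, were looked for on both strands and occurred in 3 of 23 members (Sox8, Nkx2-2 and Gpr37), beside 16.6% of all windows. The E-box letters CAGCTG occurred in 1 of 23 (Lhfpl3), beside 12.8%, and the SOX letters ACAAAG in 4 of 23 (Mag, Cnp, Mobp and Opalin), beside 16.5%. A match of letters shows no binding, and the first 250 bases of the window of Olig2 held none of the 3.

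The other precursor genes did not share the direction of the Olig genes throughout. C1ql1, a secreted C1q-like protein made by precursors, stood at 4.84, 5.92 and 4.79 CPM in Npas3+/- and 3.98, 4.03 and 4.06 CPM in WT. The WT libraries were nearly equal and all below the Npas3+/- ones, with means of 5.18 ± 0.636 CPM in Npas3+/- and 4.02 ± 0.0404 CPM in WT (SD, n = 3; log2 fold change 0.37, SE 0.15, edgeR adjusted p = 0.401). It was 0.24 with the GC correction.

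Sox10, the transcription factor required for terminal differentiation, was at 13.9, 11.5 and 15.7 CPM in Npas3+/- and 14.1, 11.1 and 11.1 CPM in WT, with overlapping groups (log2 fold change 0.18, SE 0.15, edgeR adjusted p = 0.686). Single libraries moved that value, which was 0.08 with Npas3+/- replicate 3 left out, 0.30 with Npas3+/- replicate 2 and 0.31 with WT replicate 1, and it was 0.06 with the GC correction and 0.34 with the striatal covariate. Its relative Sox8 averaged 23.7 ± 3.72 CPM in Npas3+/- and 25.2 ± 3.91 CPM in WT (SD, n = 3), a log2 fold change of -0.09. Nkx2-2, a homeodomain factor of ventral precursors that also promotes differentiation, was low, at 1.09 to 1.81 CPM in Npas3+/- and 0.607 to 1.97 CPM in WT.

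Pdgfra, the receptor through which PDGF-AA drives precursor division, stood at 68.5, 78.1 and 83.6 CPM in Npas3+/- and 82.9, 84.3 and 70.0 CPM in WT. The groups covered the same range, and the log2 fold change was -0.04 (SE 0.10, edgeR adjusted p = 0.907). Cspg4, which encodes the NG2 proteoglycan, averaged 20.5 ± 3.78 CPM in Npas3+/- and 19.9 ± 1.52 CPM in WT (SD, n = 3). Lhfpl3, a tetraspan membrane protein enriched in precursors, had the lowest log2 fold change of the 10 precursor genes, -0.19 (SE 0.12, edgeR adjusted p = 0.596), with 16.9 to 19.5 CPM in Npas3+/- and 18.4 to 23.9 CPM in WT. Its value was -0.08 with WT replicate 2 left out or with the GC correction, and -0.05 with the striatal covariate. Matn4, a matrilin of the extracellular matrix, was at 2.97 to 4.42 CPM in Npas3+/- and 2.42 to 5.39 CPM in WT.

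Over the 10 precursor genes, 7 had positive and 3 negative log2 fold changes, with a median of 0.135. The GC correction gave a median of 0.037. Leaving out WT replicate 1 gave 0.277, while 0.014 was found with WT replicate 2 left out, 0.070 with WT replicate 3 and 0.045 with Npas3+/- replicate 3. Summed over the 10 genes the level was 284.2, 300.3 and 315.5 CPM in Npas3+/- and 299.2, 281.4 and 259.2 CPM in WT. The sums overlapped, as WT replicate 1 was above Npas3+/- replicate 1.

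Genes of committed and newly formed oligodendrocytes ranged from well counted to nearly absent. Gpr17, a G-protein-coupled receptor of cells leaving the precursor state, was at 13.8, 17.8 and 16.6 CPM in Npas3+/- and 15.6, 14.9 and 11.4 CPM in WT (log2 fold change 0.20, SE 0.15, edgeR adjusted p = 0.649). The genotypes overlapped, and the log2 fold change of Gpr17 was 0.08 with WT replicate 3 left out, 0.13 with Npas3+/- replicate 2 left out and 0.39 with the striatal covariate. Bcas1, a marker of early myelinating cells, averaged 5.58 ± 0.205 CPM in Npas3+/- and 5.72 ± 0.839 CPM in WT (SD, n = 3). Traf4, a signalling adaptor also expressed in many other cells, was at 105, 109 and 114 CPM in Npas3+/- and 110, 103 and 112 CPM in WT. It had the highest level per length of this stage, 33.2 ± 1.40 CPM per kb in Npas3+/- and 32.9 ± 1.44 in WT (SD, n = 3), and a log2 fold change of 0.02.

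Myrf, the factor that turns on the myelin programme, had 17, 55 and 84 counts in the 3 Npas3+/- libraries, against 105, 161 and 46 in WT. This gave 0.193, 0.715 and 1.11 CPM in Npas3+/- and 1.55, 1.92 and 0.641 CPM in WT. Npas3+/- replicate 1 was the lowest library and WT replicates 1 and 2 the highest, while WT replicate 3 lay below 2 Npas3+/- libraries. The log2 fold change was -1.03 (SE 0.64, edgeR adjusted p = 0.580), the largest in size of the 26. It lay at -0.58 when Npas3+/- replicate 1 was left out, at -1.59 when Npas3+/- replicate 3 was, and at -0.02 with the striatal score as a covariate. The libraries high in Myrf, WT replicates 1 and 2, were also the highest in that score. The score averaged -0.57 ± 0.85 in Npas3+/- and 0.57 ± 0.94 in WT (SD, n = 3), and its part in Myrf was not tested.

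Zfp488, a zinc finger protein that acts with Olig2, had 0.740, 2.0 and 2.70 CPM in Npas3+/- and 2.51, 1.97 and 1.39 CPM in WT. Npas3+/- replicate 1 again was lowest, and the genotypes overlapped (log2 fold change -0.11, SE 0.46); 15.6% of its 50-base windows also occur in exons of other genes, so its count is uncertain. Enpp6, a choline phosphodiesterase of newly formed oligodendrocytes, had 4, 0 and 4 counts in Npas3+/- and 4, 21 and 0 in WT. Nkx6-2, a homeodomain factor of myelinating cells, had 0, 6 and 0 counts in Npas3+/- and 0, 26 and 8 in WT. Neither gene was tested, and WT replicate 2 held most of the reads of both.

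Per kb of exon the myelin genes covered a wide range. Sirt2, a deacetylase present in myelin and in other cells, led the stage at 12.5 ± 0.224 CPM per kb in Npas3+/- and 12 ± 0.332 in WT (SD, n = 3). Mog, the oligodendrocyte glycoprotein of the outer sheath, was at 5.37 ± 0.536 CPM per kb in Npas3+/- and 4.71 ± 0.433 in WT. Whether the Mog reads came from myelinating cells was not tested. Cnp, the myelin phosphodiesterase, was at 4.93 ± 0.575 CPM per kb in Npas3+/- and 5.22 ± 0.662 in WT, and Mbp, myelin basic protein, at 4.83 ± 0.319 in Npas3+/- and 4.47 ± 0.345 in WT. The order of Mog, Cnp and Mbp differed between the genotypes. Mag, a glycoprotein of the inner sheath, was at 0.116 ± 0.0474 CPM per kb in Npas3+/- and 0.165 ± 0.0501 in WT. The Olig genes were higher per kb than any of these, with Olig1 at 42.0 ± 0.571 in Npas3+/- and 36.3 ± 1.62 in WT and Olig2 at 18.0 ± 1.37 in Npas3+/- and 13.9 ± 1.35 in WT. The other precursor genes were all below Sirt2. Pdgfra (7.65 ± 0.76 in Npas3+/- and 7.89 ± 0.785 in WT), Sox8 and Lhfpl3 were above Mog, Cnp and Mbp. Sox10 (4.5 ± 0.69 in Npas3+/- and 3.96 ± 0.559 in WT), Cspg4, C1ql1, Matn4 and Nkx2-2 were below Mog, Cnp and Mbp.

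Mobp and Opalin, which encode proteins of mature sheaths, had 0 counts in all 6 libraries, which allows at most 3 counts in each, or 0.0341 to 0.0397 CPM in Npas3+/- and 0.0357 to 0.0443 CPM in WT. That limit covers counting error only. Cldn11, the tight junction protein of myelin, had 12 to 24 counts in Npas3+/- and 5 to 22 in WT, and Mal, a proteolipid of myelin, 55 to 87 counts in Npas3+/- and 40 to 66 in WT.

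**Figure D3:**
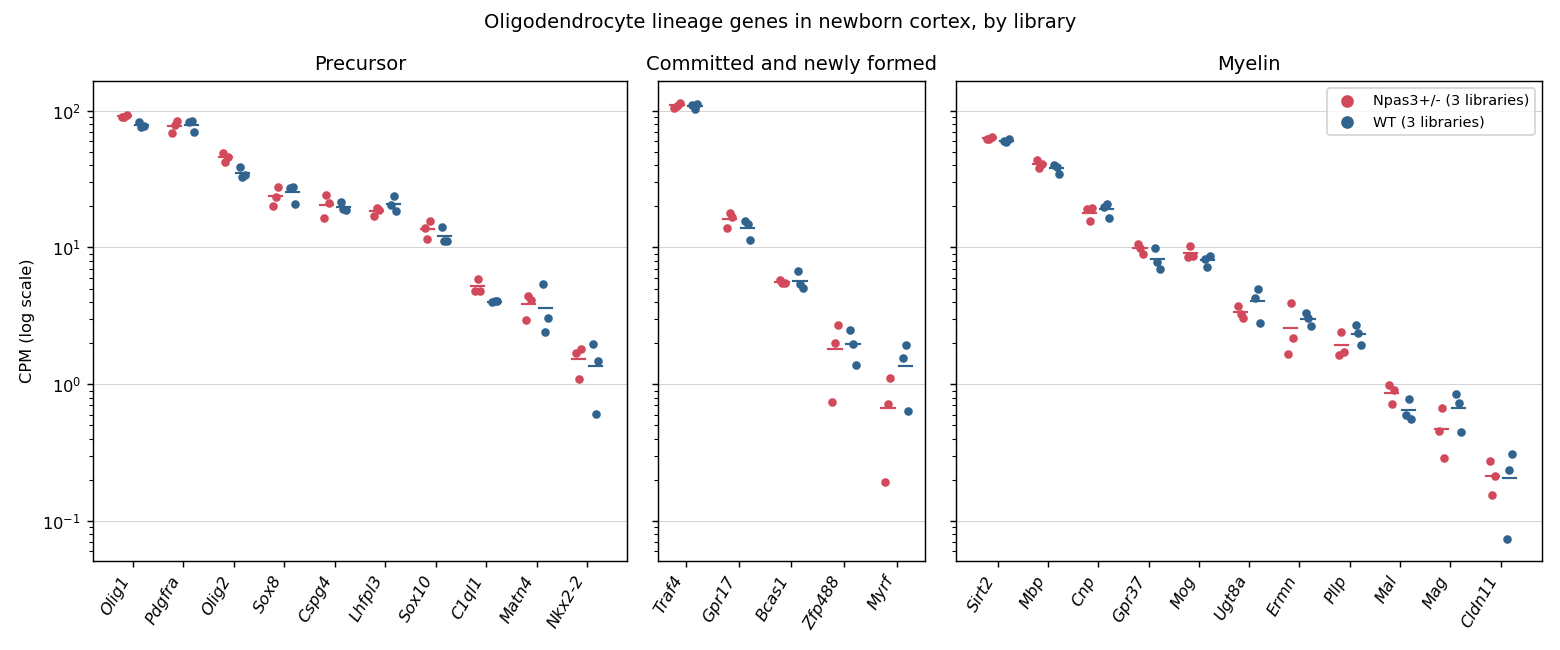
Level of each tested gene in each library, in CPM on a log scale, by stage, with Npas3+/- libraries (red) left of WT libraries (blue) and a dash at each mean. Olig1 and Olig2 have all red points above the blue ones, Myrf spans 0.193 to 1.92 CPM, and the myelin genes run from Sirt2 at about 60 CPM down to Cldn11 under 1 CPM.

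Mbp stood at 43.7, 38.3 and 40.8 CPM in Npas3+/- and 40.2, 38.8 and 34.5 CPM in WT. Its log2 fold change was 0.11 (SE 0.09, edgeR adjusted p = 0.661), and the genotypes overlapped. Leaving out WT replicate 3 gave 0.056 for Mbp and leaving out Npas3+/- replicate 1 gave 0.065, against 0.184 with the striatal covariate and 0.075 with the GC correction. The Mbp locus also makes golli transcripts that neurons express, and the counts do not separate them. Mog was at 8.58, 10.2 and 8.67 CPM in Npas3+/- and 8.17, 7.23 and 8.68 CPM in WT (log2 fold change 0.19, SE 0.13, edgeR adjusted p = 0.628). For Mog the value was 0.105 with Npas3+/- replicate 2 left out, 0.12 with WT replicate 2 left out and 0.07 with the striatal covariate. Sirt2 was at 62.1, 62.1 and 64.0 CPM in Npas3+/- and 60.1, 58.6 and 61.9 CPM in WT. The Sirt2 groups did not overlap, yet the gap between them was small and the log2 fold change was 0.06 (SE 0.06, edgeR adjusted p = 0.737).

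Gpr37, a receptor that restrains oligodendrocyte differentiation, had the smallest p of the myelin genes. It was at 10.6, 9.97 and 8.91 CPM in Npas3+/- and 9.83, 7.82 and 6.98 CPM in WT, with overlapping groups (log2 fold change 0.26, SE 0.16, edgeR adjusted p = 0.565). It was 0.16 with WT replicate 3 left out and 0.41 with WT replicate 1 left out. Negative log2 fold changes were found for Cnp (-0.08, SE 0.13), Ugt8a, which makes the myelin lipid galactosylceramide (-0.26, SE 0.24), the cytoskeletal Ermn (-0.22, SE 0.32), the tetraspan Pllp (-0.28, SE 0.25) and Mag (-0.50, SE 0.45), with overlapping groups for all 5. Mal (0.43, SE 0.32) and Cldn11 (0.05, SE 0.68) rested on few counts.

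Set against each other, precursor and myelin genes did not separate the genotypes. The myelin genes had a median log2 fold change of 0.049, with 6 positive and 5 negative of 11 tested, against 0.135 for the precursor genes and -0.037 for 5 tested committed genes. Leaving out WT replicate 1 turned the sign of both smaller medians, to -0.047 for the myelin genes and 0.089 for the committed genes. The committed median was also positive when Npas3+/- replicate 1 was left out (0.047) and with the striatal covariate (0.026), and the myelin median was -0.020 over the 8 genes left by a filter at 1 CPM. The precursor score minus the myelin score came to -0.04, -0.01 and 0.26 for the Npas3+/- libraries, and to 0.12, -0.31 and -0.03 for the WT libraries in the order of their numbers. Its mean was 0.07 ± 0.16 in Npas3+/- and -0.07 ± 0.22 in WT (SD, n = 3), a difference of 0.14 that is smaller than either SD, and the groups overlapped. Leaving out Npas3+/- replicate 3 made the difference 0.05, leaving out WT replicate 2 made it 0.025, and with WT replicate 1 left out it was 0.24. No p is given for these scores, since the genes were chosen with earlier results of these data known.

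**Figure D4:**
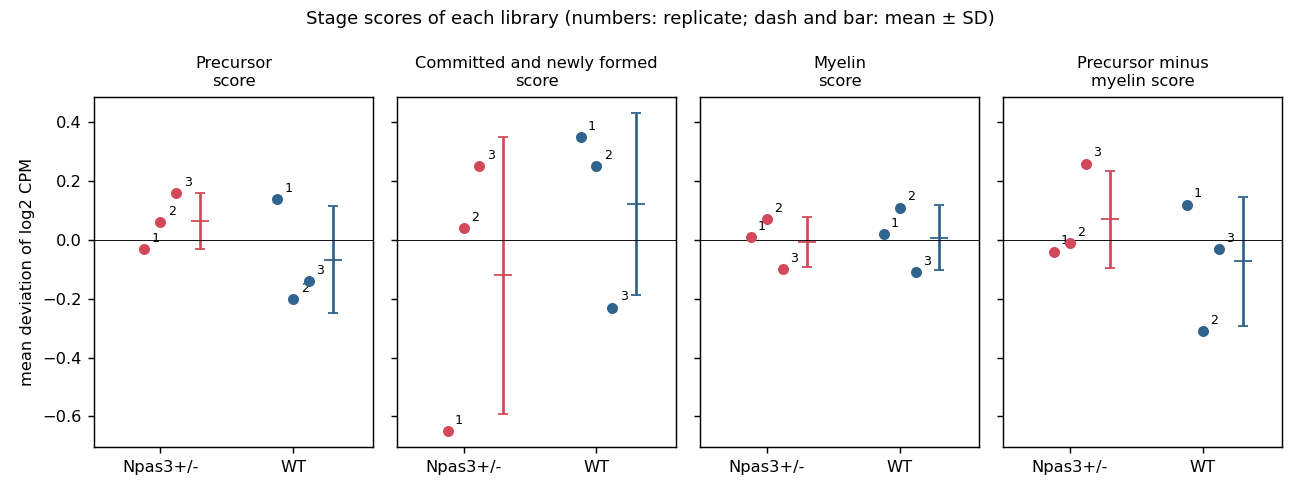
Score of each library (mean deviation of log2 CPM) for precursor, committed and myelin genes and for precursor minus myelin, with Npas3+/- left of WT, replicate numbers beside points, and mean ± SD. The genotypes overlap in all 4 panels, and Npas3+/- replicate 1 is lowest for the committed genes at -0.65.

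Other genes of the lineage were read from lists that do not share members with the 30. The counts given for these lists stand beside 12.1% of all genes at an unadjusted p under 0.05 and 2.81% of all genes with a DESeq2 adjusted p called by DESeq2. DESeq2 gave an adjusted p to 12 of 13 further precursor genes and to 8 of 9 of newly formed cells. It gave one to 17 of 26 further myelin genes and to 23 of 27 signal genes. Of 13 further precursor genes, all tested, 4 had positive and 9 negative log2 fold changes (median -0.137). None passed in edgeR, 2 had an unadjusted p under 0.05 and DESeq2 called 1, Ptprz1. Ptprz1, a receptor phosphatase shared with radial glia, was at 437, 452 and 475 CPM in Npas3+/- and 539, 542 and 577 CPM in WT, with all Npas3+/- libraries below WT (log2 fold change -0.28, SE 0.05, edgeR adjusted p = 0.27, DESeq2 adjusted p = 0.0138). Megf11, an adhesion protein, had a log2 fold change of -0.94 (SE 0.40) and Pcdh15, a protocadherin, 0.21 (SE 0.12), with overlapping groups for both.

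Of 9 further genes of newly formed cells 4 were positive and 5 negative (median -0.039), and 0 were called by edgeR, by DESeq2 or at an unadjusted p under 0.05. Log2 fold changes put Tmem163, a zinc transporter, at -0.25, Sema5a, a semaphorin, at -0.21 and Fyn, a kinase that promotes differentiation, at -0.04. Of 26 further myelin genes 23 were tested, 9 positive and 14 negative (median -0.086), with 0 called by edgeR or DESeq2 and 5 at an unadjusted p under 0.05. Gltp, a glycolipid transfer protein, was at 6.31, 6.48 and 6.90 CPM in Npas3+/- and 8.19, 8.81 and 9.02 CPM in WT (log2 fold change -0.40, SE 0.12, edgeR adjusted p = 0.288). Car2, a carbonic anhydrase, was at -0.46 (SE 0.16) and Jam3, a junctional adhesion molecule, at 0.27 (SE 0.10). For Gltp and Car2 all Npas3+/- libraries were below WT, and for Jam3 all were above. Fa2h, Aspa and Klk6 were not tested in edgeR and had no DESeq2 adjusted p, and they were named after their values were seen. Fa2h had 0 counts in every Npas3+/- library and 4, 24 and 17 in WT replicates 1 to 3. Aspa had 15 counts, all in WT replicate 2, and Klk6 had 0 in all 6 libraries.

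Among 27 genes of signals that act on the lineage, 26 were tested, 10 positive and 16 negative (median -0.084), with 0 called by edgeR or DESeq2 and 1, Hes5, at an unadjusted p under 0.05. The ligand of Pdgfra, Pdgfa, was at 21.4, 24.0 and 21.5 CPM in Npas3+/- and 20.2, 20.8 and 17.7 CPM in WT, with the groups apart (log2 fold change 0.19, SE 0.10, edgeR adjusted p = 0.504). Hes5, a Notch target that holds back differentiation, was at 9.25, 11.4 and 17.2 CPM in Npas3+/- and 20.5, 18.9 and 18.6 CPM in WT (log2 fold change -0.62, SE 0.21, edgeR adjusted p = 0.338). Pdgfc, another ligand of Pdgfra, had a log2 fold change of -0.41 (SE 0.18), and Thra, a thyroid hormone receptor, 0.10 (SE 0.05). Pdgfa was named after its values were seen.

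Several members are shared with other cells, whose markers were read in the same libraries. Radial glia and astrocytes, which also express Olig1, Olig2 and Sox8 at some stages, had 13 of 14 genes with negative log2 fold changes (median -0.372). Of the 14, edgeR called 0, DESeq2 called 3, and 10 had an unadjusted p under 0.05. Over all genes, DESeq2 called 2.81% and 12.1% had an unadjusted p under 0.05, which also applies to the cells below. The summed level of the radial glia and astrocyte genes was 761.0 to 975.7 CPM in Npas3+/- and 1135.4 to 1223.2 CPM in WT, without overlap. This lower level is opposite in sign to the Olig genes, and its part in them was not tested. Pericytes, which share Cspg4, had 6 positive and 4 negative of 10 genes (median 0.014). Their sums were 142.9 to 161.0 CPM in Npas3+/- and 161.6 to 172.5 CPM in WT, which narrowly did not overlap. Rgs5, with overlapping groups, held the largest part of the sums, on average 67.7 CPM in Npas3+/- and 70.7 CPM in WT. The pericyte scores, which weigh each gene equally, overlapped, at -0.05 to 0.09 in Npas3+/- and -0.02 to 0.0 in WT. DESeq2 called 1 of the 10 pericyte genes and edgeR 0: Notch3, a receptor of mural cells, was lower in all Npas3+/- libraries (log2 fold change -0.40, SE 0.10, edgeR adjusted p = 0.276, DESeq2 adjusted p = 0.0275). Meningeal fibroblasts, which share Pdgfra, had 4 positive and 4 negative of 8 tested genes, with sums of 35.6 to 40.2 CPM in Npas3+/- and 34.7 to 39.1 CPM in WT, and neither tool called any, with 1 at an unadjusted p under 0.05. Of 10 genes of Schwann cells and olfactory ensheathing glia, which share Sox10, 4 of 6 tested were positive and the sums were 130.1 to 156.3 CPM in Npas3+/- and 111.6 to 132.3 CPM in WT. DESeq2 called 1 of these and edgeR 0: Ngfr, the p75 neurotrophin receptor, was higher in all Npas3+/- libraries (log2 fold change 0.59, SE 0.16, edgeR adjusted p = 0.276, DESeq2 adjusted p = 0.0304). Pmp2, a Schwann cell gene, had 0 counts in all 6 libraries. The part of these cells in the members' levels was otherwise not tested.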

How the data were processed

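Raw counts of reads for each gene, in 1 table of the 6 libraries, were deposited by the authors, and its columns were matched to samples by name, with NP read as Npas3+/-. Trimmomatic 0.3.8, HISAT2 2.1.0 and featureCounts with the mm10 genome are named in the submitters' processing notes. The annotation, the use of strand and the handling of reads with several matches are not given in the sources used here, and exons of 13 of the 30 genes overlap a gene on the opposite strand, so those counts are uncertain. Gene identifiers were matched to GENCODE M21 without their version (53274 of 53379).

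The counts were fitted as deposited in edgeR 4.0.16 (R 4.3.3): filterByExpr, TMM scaling and glmQLFTest on genotype, with Benjamini-Hochberg adjustment over all genes tested and a threshold of 0.05. The SE of a log2 fold change is its size divided by the square root of F. Scores use log2 CPM with a prior count of 2. CPM per kb divides by merged exon length. The fit was also run on simulated counts with known changes, all larger than those of Olig2 and Olig1. The outcome is not given here, and it could not show whether changes of their size would be called. Alternatives were RLE scaling, other filters, DESeq2 1.42.0, the replicate number as a block, the striatal score as a covariate, a lowess correction for transcript GC content (span 0.4), and each library left out.

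The members, stage groups and lists were chosen with earlier results of these data known. The rule for named genes took all 30 members, Npas3 and the 3 smallest p-values of each further list of the lineage.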

Additional observations from a re-analysis of the deposited data

How the results depend on the processing

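No member passed in edgeR under RLE scaling, other low-count filters, the replicate block, the striatal covariate, the GC correction or with any 1 library left out, and DESeq2 called 1, Olig2. Over all genes DESeq2 called 429 and the replicate block left 3, against 8. Leaving out 1 library gave 7 to 16, the highest without WT replicate 1. The labels do not say whether replicate numbers pair the samples. Deviations from the genotype mean correlated at 0.0368, -0.0300 and -0.0879 for numbers 1 to 3, and 1 of 3 pairs was positive. Deviations from means of 3 libraries cannot decide whether the samples were paired.

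Of 179 member values under alternatives other than leaving out a library, 169 kept their direction and their side of the threshold, as did 139 of 156 with a library left out. Myrf, Mag, Cldn11 and Mal had no adjusted p in DESeq2 and were counted there as not passing. No member passed in the main fit, so a side could change only by passing, and these counts mainly describe direction. With the striatal covariate the log2 fold change was 0.186 for Sox8, 0.12 for Pdgfra, 0.026 for Bcas1, 0.414 for Zfp488, 0.111 for Cnp, -0.188 for Cldn11 and 0.008 for Ugt8a, each opposite in sign to the value reported, and with the GC correction it was -0.031 for Cspg4 and -0.061 for Traf4. With 1 library left out, signs changed within the ranges -0.208 to 0.020 for Sox8, -0.165 to 0.561 for Nkx2-2, -0.121 to 0.033 for Pdgfra, -0.080 to 0.183 for Cspg4, -0.137 to 0.489 for Matn4, -0.114 to 0.089 for Bcas1, -0.510 to 0.267 for Zfp488, -0.019 to 0.047 for Traf4, -0.178 to 0.013 for Cnp, -0.344 to 0.444 for Cldn11 and -0.648 to 0.029 for Ermn. None of these genes was called under any of these settings, and the cause was not tested. Ranges with 1 library left out were -0.839 to -0.244 for Mag, -0.471 to -0.151 for Pllp and -0.465 to -0.075 for Ugt8a. Cldn11, Enpp6 and Nkx6-2 had at most 26 counts in a library, which limits the precision of their values.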
